A study of Sus scrofa with 6 samples.

Results

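The genes described here copy DNA, watch over the copying and mend damage to it: helicase and polymerase subunits, checkpoint kinases and the enzymes of the repair pathways. They were taken from the array's annotation by matching gene symbols to the families of DNA replication, checkpoint and repair. The match gave 82 probe sets for 57 genes, of 10069 probe sets and 6765 genes with a single symbol. RNA came from pig oocytes at metaphase II, where meiosis halts until a sperm enters, on 6 Affymetrix arrays. One group of 3 arrays was made from oocytes of prepubertal females (gilts), called developmentally incompetent in the labels, and the other group of 3 from oocytes of adult females (sows), called competent. In both groups the follicles measured 2 to 6 mm, in vitro maturation lasted 42 to 44 h, and the oocytes were freed of cumulus cells and checked for a first polar body. The labels call the arrays of a group biological replicates but give no number of oocytes or animals behind an array, so a p-value here measures the spread between these samples.

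A mature oocyte makes little new RNA, and the first rounds of DNA copying after fertilization draw on mRNA and protein laid down while the oocyte grew. At each origin of replication the origin recognition complex loads the MCM helicase, after which polymerases, the sliding clamp PCNA and the single-strand binding protein RPA form the fork. When a fork stalls, the kinase ATR passes a signal through the adaptor claspin to checkpoint kinase 1, while translesion polymerases such as REV1 copy past damaged bases, and separate pathways mend bases, adducts, crosslinks and breaks.

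The values are MAS5 signals, a linear brightness per probe set, and differences are given as log2(signal + 16), prepubertal minus adult. The arrays lay at different levels as deposited, with 2% trimmed means of 106 to 132 in prepubertal and 123 to 161 in adult oocytes (exact permutation p = 0.2, 2-sided, n = 3 each, smallest possible p 0.1). Differences are therefore also given after quantile normalization for the probe sets described most fully and for each class, and that scaling moved the median difference of the 12000 tested probe sets to −0.01, against −0.20 as deposited. The summed signal of 5 measured oocyte markers, among them ZP2, ZP4 and GDF9, was 4582 to 5518 in prepubertal and 4839 to 5533 in adult oocytes, so markers of the labelled cell type were bright in both groups. Of 14 measured genes of cumulus and granulosa cells, 9 stayed on every array under 32.6, the highest signal of any nonspecific control tag, FSHR, CYP19A1 and AMH included, and the list summed to 413 to 479 against 419 to 525. The others exceeded that tag: INHBA read 90.3 to 135, and NR5A1 reached 86, VCAN 75.9, INHA 61.6 and HSD3B1 42.5. The 3′ to middle ratio of the ACTB control was 5.74 ± 0.272 in prepubertal and 5.71 ± 0.161 in adult oocytes (log2 scale, SD, n = 3 each, exact permutation p = 0.8).

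Of the 82 probe sets, 62 (50 genes) were bright enough to be tested. In prepubertal oocytes 1 probe set each of CLSPN, CHEK1 and REV1 was lower at a limma adjusted p under 0.05 and none was higher. These 3 were 4.84% of the tested members, while of all tested probe sets 0.442% were lower and 0.0333% higher at the same threshold, 0.475% together. On quantile-normalized values 0 passed by limma, beside 0.0917% of all tested lower and 0.025% higher, 0.117% together. On those values 8 members were lower and 3 higher at an unadjusted limma p under 0.05, beside 5.81% and 5.06% of all tested. Among the 8 were dim probe sets of ERCC1, POLA2 and MCM5, which entered the test through their adult arrays and support nothing. In RNA from whole oocytes a lower signal can mean fewer oocytes with the transcript or less of it in each. It can also mean shorter poly(A) tails, since the RNA was captured by the tail. The arrays cannot tell these apart.

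**Figure D1:**
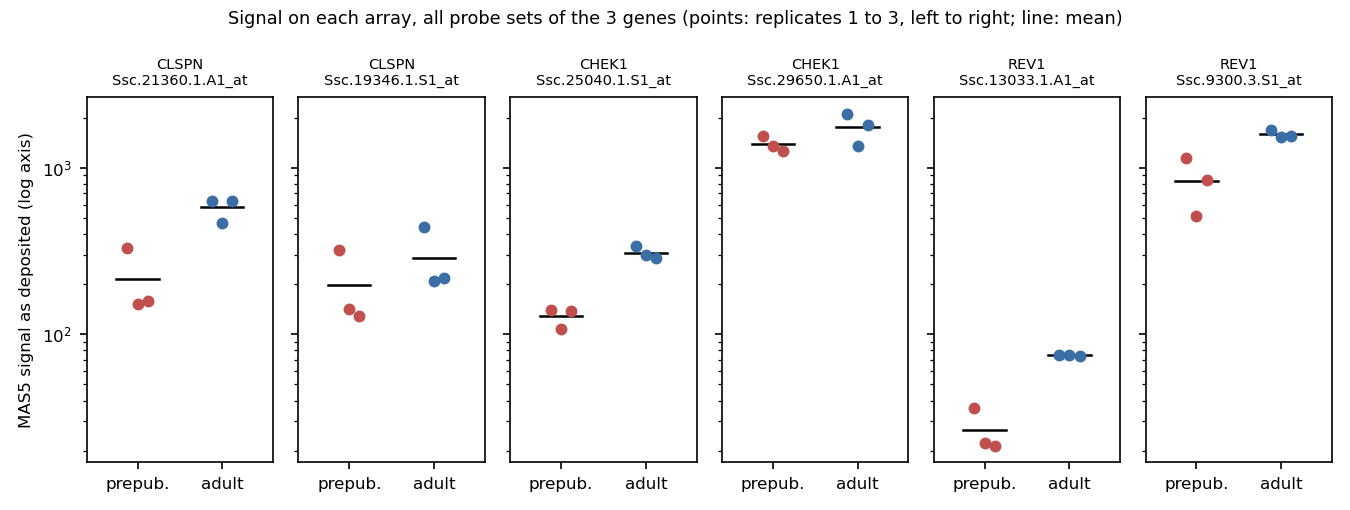
MAS5 signal as deposited (log axis) of every probe set of CLSPN, CHEK1 and REV1, with prepubertal arrays left of adult arrays in each panel. Points are replicates 1 to 3 from left to right and lines are group means (n = 3 each). In the CLSPN, CHEK1 and REV1 probe sets that passed the threshold all prepubertal points lie under all adult points, while the groups overlap in the second probe set of CLSPN and of CHEK1.

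Among the checkpoint genes, CLSPN, which encodes claspin, had the lowest difference of all members. Its probe set Ssc.21360.1.A1_at read 331, 152 and 158 in prepubertal oocytes, against 632, 466 and 633 in adult oocytes. All prepubertal arrays lay below all adult ones, and prepubertal replicate 1 lay closest to them. The difference was −1.44 ± 0.27 (SE), 2.72-fold lower, with a limma adjusted p of 0.0174. After quantile normalization it was −1.18 ± 0.21, the groups still did not overlap, and the limma adjusted p was 0.0519. The second CLSPN probe set, Ssc.19346.1.S1_at, read 322, 142 and 129 in prepubertal oocytes, against 438, 208 and 217 in adult oocytes. Here replicate 1 was high in both groups and the groups overlapped, and the difference of −0.54 ± 0.31 had a limma adjusted p of 0.421.

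CHEK1 encodes checkpoint kinase 1, which claspin helps ATR to activate and which restrains entry into mitosis while DNA is unreplicated. Probe set Ssc.25040.1.S1_at read 139, 108 and 137 in prepubertal oocytes, against 340, 299 and 287 in adult oocytes. The replicates of each group were close and the groups lay well apart. The difference was −1.18 ± 0.23, 2.26-fold lower (limma adjusted p = 0.0235), and −0.92 ± 0.16 after quantile normalization (limma adjusted p = 0.0519). The second CHEK1 probe set, Ssc.29650.1.A1_at, was the brightest of the checkpoint class, at 1553, 1356 and 1258 in prepubertal oocytes against 2100, 1356 and 1804 in adult oocytes. Prepubertal replicate 1 exceeded adult replicate 2, so the groups overlapped. Its difference of −0.32 ± 0.20 had a limma adjusted p of 0.461 and came to −0.04 ± 0.12 after quantile normalization.

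RAD1, a subunit of the ring-shaped clamp that is loaded at damaged sites, read 1471, 905 and 946 in prepubertal oocytes, against 2180, 1379 and 1695 in adult oocytes. Prepubertal replicate 1 exceeded adult replicate 2 as deposited, while the groups separated after quantile normalization. The difference of −0.66 ± 0.22 did not pass (limma adjusted p = 0.189), nor did −0.39 ± 0.13 after quantile normalization (0.293). Of the 7 checkpoint probe sets, which also cover the kinases ATM and CHEK2, 2 were called lower as deposited, beside 0.442% of all tested. Differences below 0 numbered 6 under either scaling, beside 74.8% of all tested as deposited and 51.2% after quantile normalization. The class median was −0.54 as deposited and −0.30 after quantile normalization.

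The translesion class covered REV1, RAD18 and POLI in 5 tested probe sets. REV1, which inserts bases opposite damaged sites and docks other translesion polymerases, was measured by a dim and a bright probe set. The dim one, Ssc.13033.1.A1_at, read 36.1, 22.3 and 21.4 in prepubertal oocytes, against 74.7, 75.2 and 74.5 in adult oocytes. The adult arrays were nearly equal, and 2 of the prepubertal arrays were under the highest control tag signal of 32.6. The prepubertal mean of 26.6 lay under that signal too, so the size of the difference depended on the added constant: it was −1.40 with a constant of 4 and −0.62 with one of 64. With the constant of 16 it was −1.11 ± 0.24 (limma adjusted p = 0.0371), and −0.99 ± 0.22 after quantile normalization (limma adjusted p = 0.105).

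The bright REV1 probe set, Ssc.9300.3.S1_at, read 1139, 516 and 846 in prepubertal oocytes, against 1690, 1530 and 1548 in adult oocytes. Again the groups did not overlap and prepubertal replicate 1 came nearest to the adult arrays. Its difference of −0.99 ± 0.23 stood just outside the threshold (limma adjusted p = 0.0637), and was −0.71 ± 0.18 after quantile normalization (0.148). RAD18, the ubiquitin ligase that marks PCNA to bring in translesion polymerases, read 233, 164 and 215 in prepubertal oocytes, against 296, 294 and 355 in adult oocytes on Ssc.18120.1.A1_at. These groups did not overlap as deposited but did after quantile normalization, and the difference of −0.60 ± 0.23 had a limma adjusted p of 0.246. The dimmer RAD18 probe set Ssc.18120.2.S1_at differed by −0.06 ± 0.26 (limma adjusted p = 0.931). The class median was −0.60 as deposited and −0.34 after quantile normalization.

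Whether probe sets of a gene moved alike was compared within each array, where the level of the array largely cancels, for all 14 pairs of tested probe sets in 10 genes; this comparison was chosen after the differences had been seen. In CHEK1 the log2 ratio of Ssc.25040.1.S1_at to Ssc.29650.1.A1_at differed by −0.86, prepubertal minus adult, with an SD of 0.21 among prepubertal and 0.26 among adult arrays. In CLSPN the ratio of Ssc.21360.1.A1_at to Ssc.19346.1.S1_at differed by −0.90. The prepubertal and adult ratios did not overlap in these 2 pairs, each with the smallest p that 3 against 3 arrays allow (exact permutation p = 0.1, 0.56 adjusted over the 14 pairs). In REV1 the ratio of the dim to the bright probe set differed by −0.12 (exact permutation p = 0.7), but that value depends on the constant, as the difference of the dim probe set does. For CLSPN and CHEK1, then, 1 of the 2 probe sets of each gene passed the threshold, and since 3 against 3 arrays cannot give a p below 0.1, the contrast between the 2 is a description. Which transcript ends each probe set detects is not given in the sources used here.

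**Figure D2:**
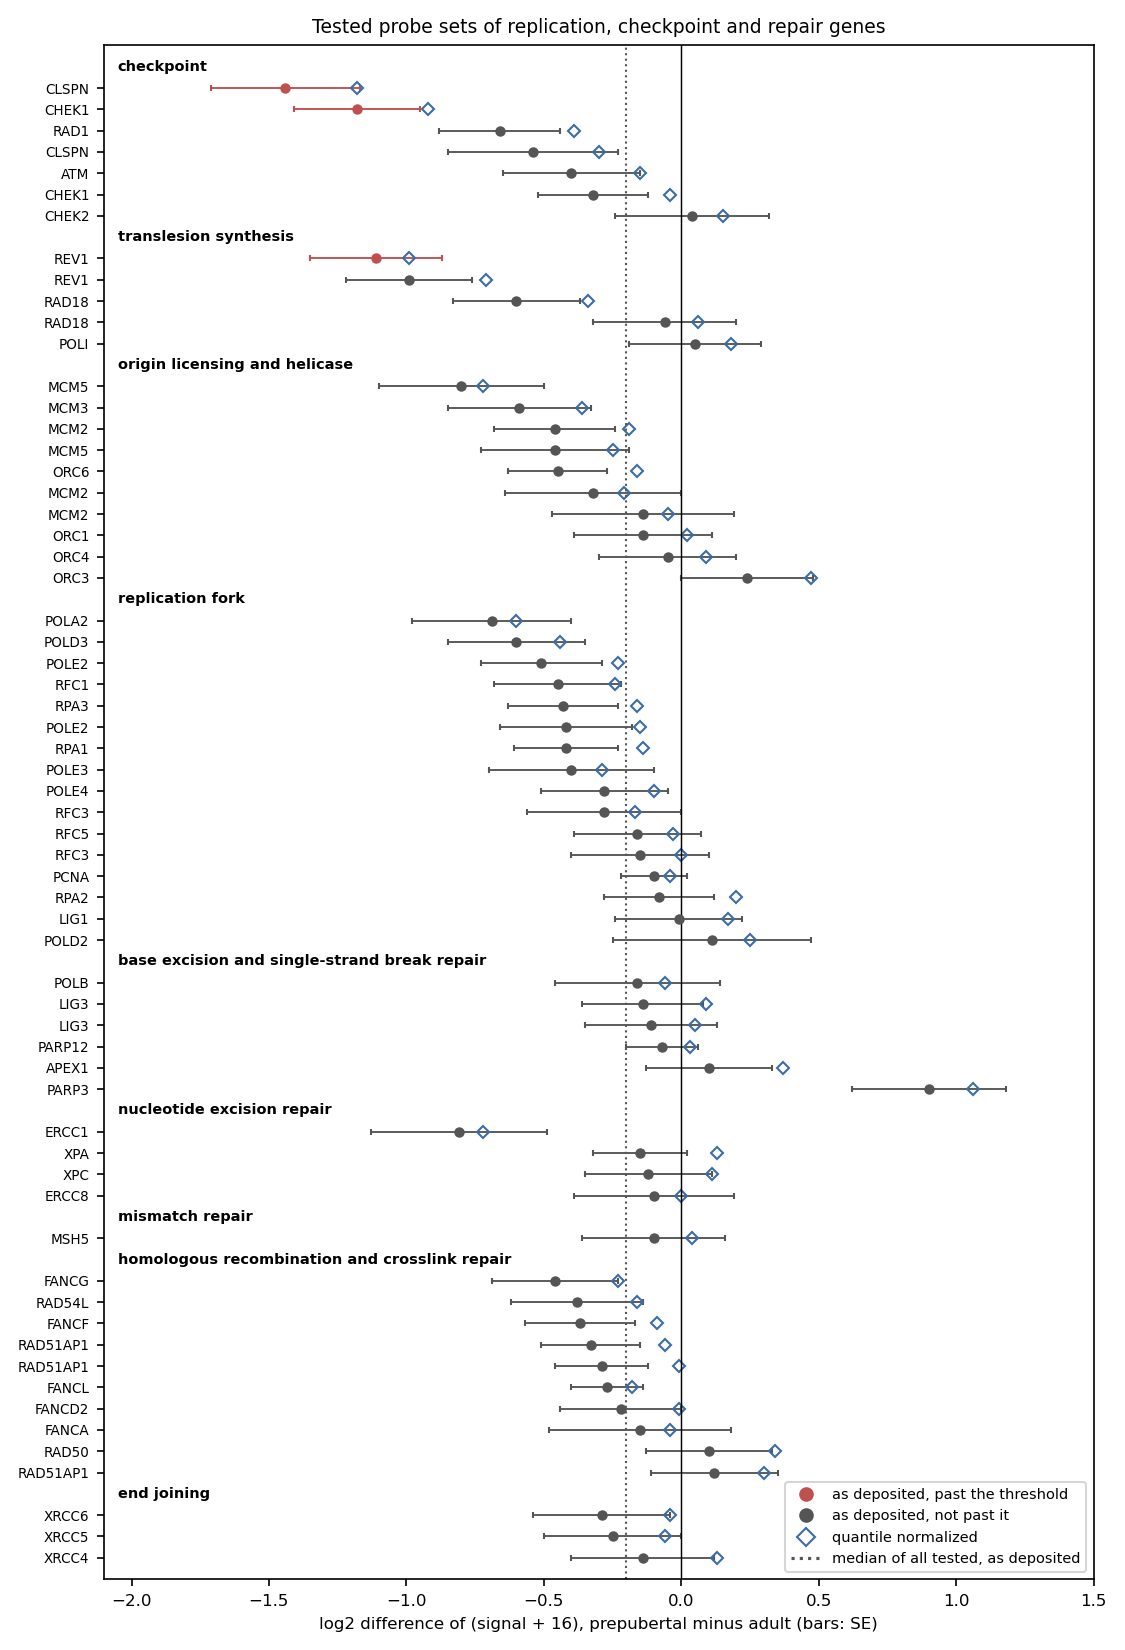
Log2 difference of (signal + 16), prepubertal minus adult, for the 62 tested probe sets by role. Filled points are values as deposited with SE bars, red where the limma adjusted p was under 0.05, open diamonds are values after quantile normalization, and the dotted line is the median of all tested probe sets, −0.20. The red points of CLSPN, CHEK1 and REV1 lie farthest left, and PARP3 is the one point far to the right.

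Of the 62 tested members, 54 had a difference below 0 as deposited (87.1%), beside 74.8% of all tested probe sets, and 41 after quantile normalization (66.1%), beside 51.2%. The same 41 were below 0 under both scalings, 13 were below 0 only as deposited, and 8 were above 0 under both. The members' median was −0.28 as deposited and −0.06 after quantile normalization. The members with an unadjusted limma p under 0.05 as deposited were 16 lower and 1 higher, beside 13.6% and 1.14% of all tested. Groups did not overlap for 13 members lower in prepubertal oocytes and 1 higher, beside 17.1% and 1.81% of all tested, so by that count the members stood near the background. After quantile normalization these were 10 lower and 3 higher, beside 8.77% and 7.53%. The 9 lower without overlap under both scalings were CLSPN and CHEK1 (1 probe set each), both probe sets of REV1, and ERCC1, POLA2, FANCG, ORC6 and RPA1. The 1 higher was PARP3. How many of all tested probe sets stayed apart under both scalings was not counted, so these counts have no background beside them. ERCC1 and POLA2, with prepubertal means of 11.3 and 13.2, entered the test through their adult arrays, so their separation supports nothing. The same holds for a dim MCM5 probe set, counted with them among the 13 and the 16 that were lower as deposited. ERCC1 and POLA2 are also counted among the 10 that were lower without overlap after quantile normalization.

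The genes of origin licensing and of the MCM helicase had 10 tested probe sets, of which none passed. ORC6, a subunit of the origin recognition complex and the brightest of the class, read 2221, 1578 and 1755 in prepubertal oocytes, against 2705, 2404 and 2426 in adult oocytes. The groups did not overlap under either scaling, but the difference was small, at −0.45 ± 0.18 as deposited (limma adjusted p = 0.261) and −0.16 ± 0.10 after quantile normalization. The MCM2, MCM3 and MCM5 proteins are subunits of the helicase ring that unwinds DNA ahead of the fork. MCM2 (Ssc.1408.2.S1_at) read 1715, 929 and 1144 in prepubertal oocytes, against 2100, 1464 and 1573 in adult oocytes, with prepubertal replicate 1 inside the adult range and a difference of −0.46 ± 0.22 (limma adjusted p = 0.333) that came to −0.19 ± 0.14 after quantile normalization. MCM3 had a mean of 116 ± 28.7 in prepubertal oocytes, against 187 ± 56.2 in adult ones (SD, n = 3 each), a difference of −0.59 ± 0.26 with a limma adjusted p of 0.294, and of −0.36 ± 0.19 after quantile normalization. MCM5 on the dim Ssc.11264.1.A1_at averaged 13.6 ± 7.88 and 34.9 ± 10.1, a difference of −0.80 ± 0.30 (limma adjusted p = 0.236), with the prepubertal arrays all under the highest control tag. Like ERCC1 and POLA2, this probe set entered the test through its adult arrays, so that difference supports nothing. The brighter MCM5 probe set, Ssc.16649.1.S1_a_at, averaged 110 ± 53.2 in prepubertal and 150 ± 26.5 in adult oocytes, with overlap (−0.46 ± 0.27, limma adjusted p = 0.431, and −0.25 ± 0.22 after quantile normalization). The class median was −0.39 as deposited and −0.17 after quantile normalization. ORC3, picked after its values were seen, lay the other way without passing, at 0.24 ± 0.24 as deposited and 0.47 ± 0.19 after quantile normalization, where its groups did not overlap (limma adjusted p = 0.392).

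At the replication fork 16 probe sets were tested and none passed. PCNA, the sliding clamp, was among the brightest members, at 10958, 10237 and 10156 in prepubertal oocytes, against 11490, 10705 and 11321 in adult oocytes. The ranges overlapped, and the difference was −0.10 ± 0.12 (95% interval −0.34 to 0.14, limma adjusted p = 0.723). It was −0.04 ± 0.07 after quantile normalization and 0.17 ± 0.10 when arrays were scaled to a common trimmed mean. RPA1, the large subunit of the single-strand binding complex, read 1594, 1149 and 1393 in prepubertal oocytes, against 2090, 1611 and 1829 in adult oocytes. Its groups stood just apart, and its difference was −0.42 ± 0.19 (limma adjusted p = 0.316) or −0.14 ± 0.10 after quantile normalization. POLE2, the second subunit of polymerase epsilon, which synthesizes the leading strand, read 899, 670 and 640 in prepubertal oocytes, against 1410, 887 and 915 in adult oocytes on Ssc.5371.1.S1_a_at. Prepubertal replicate 1 lay just above adult replicate 2, so the ranges overlapped, and the difference was −0.51 ± 0.22 (limma adjusted p = 0.298), or −0.23 ± 0.14 after quantile normalization.

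POLD3, an accessory subunit of polymerase delta, averaged 76.6 ± 22.8 in prepubertal and 125 ± 34.6 in adult oocytes, with overlap (−0.60 ± 0.25, limma adjusted p = 0.278, and −0.44 ± 0.25 after quantile normalization). POLA2, the accessory subunit of the polymerase that primes each new strand, had no overlap but both group means under the highest control tag, at 13.2 ± 5.41 in prepubertal and 30.6 ± 5.31 in adult oocytes (−0.69 ± 0.29, limma adjusted p = 0.282). The remaining fork probe sets, among them those of the clamp loader subunits RFC1, RFC3 and RFC5, ran from −0.45 to 0.11. At the low end, RFC1 (−0.45 ± 0.23) had no overlap as deposited but did after quantile normalization, and at the high end POLD2 was dim, with both group means under the highest control tag. The class median was −0.34 as deposited and −0.14 after quantile normalization.

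In the base excision and single-strand break class, which holds the PARP family, 6 of 15 probe sets were bright enough to test. PARP3, an ADP-ribosyltransferase that acts at DNA breaks, had the highest difference of all members. It read 33.9, 55.2 and 58.6 in prepubertal oocytes, against 28.7, 13.1 and 15.4 in adult oocytes. The groups did not overlap, although prepubertal replicate 1 and adult replicate 1 were close and all adult arrays were under the highest control tag. The difference of 0.90 ± 0.28 did not pass (limma adjusted p = 0.156), nor did 1.06 ± 0.25 after quantile normalization (0.127). PARP12, a mono-ADP-ribosyltransferase and the brightest of the class, read 7888, 7385 and 8538 in prepubertal oocytes, against 8869, 8109 and 8033 in adult oocytes. Its ranges overlapped at −0.07 ± 0.13 (95% interval −0.33 to 0.19, limma adjusted p = 0.818), and the sign turned after quantile normalization. LIG3, the ligase that seals single-strand breaks, and POLB, the gap-filling polymerase of base excision repair, differed by −0.14 ± 0.22 (Ssc.3930.1.S1_at) and −0.16 ± 0.30 (limma adjusted p = 0.788 and 0.828). The median of the class was −0.09 as deposited and 0.07 after quantile normalization.

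Nucleotide excision repair, which cuts out bulky adducts, was covered by 4 genes. ERCC1, part of the nuclease that cuts beside the lesion, read 3.56, 8.77 and 21.7 in prepubertal oocytes, against 28.6, 22.9 and 40.6 in adult oocytes. The groups did not overlap, but both means were under the highest control tag, and the difference of −0.81 ± 0.32 had a limma adjusted p of 0.254. XPA, which binds the damaged strand and was the brightest of the class, read 2097, 1923 and 1872 in prepubertal oocytes, against 2121, 1974 and 2484 in adult oocytes. Its ranges overlapped, with −0.15 ± 0.17 as deposited and 0.13 ± 0.12 after quantile normalization. XPC, which recognizes adducts, and ERCC8, which acts where they stall RNA polymerase, differed by −0.12 ± 0.23 and −0.10 ± 0.29 (limma adjusted p = 0.844 and 0.899). The one member of the mismatch repair family, MSH5, whose protein works in meiotic crossing over, averaged 47.1 ± 17.7 in prepubertal and 49.9 ± 8.13 in adult oocytes (−0.10 ± 0.26, limma adjusted p = 0.885).

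Homologous recombination and crosslink repair had 10 tested probe sets, none past the threshold. FANCL, the ubiquitin ligase of the Fanconi anaemia core complex, read 8169, 6549 and 6755 in prepubertal oocytes, against 9377, 8760 and 7744 in adult oocytes. Prepubertal replicate 1 reached into the adult range, and the difference was −0.27 ± 0.13 (limma adjusted p = 0.353), or −0.18 ± 0.08 after quantile normalization. FANCG, another core complex subunit, read 125, 105 and 131 in prepubertal oocytes, against 204, 150 and 162 in adult oocytes, without overlap under either scaling (−0.46 ± 0.23, limma adjusted p = 0.350, and −0.23 ± 0.16 after quantile normalization). FANCF, a further subunit of that complex, differed by −0.37 ± 0.20 on Ssc.25158.2.A1_at, with a limma adjusted p of 0.404 and overlap between the groups. The class median of −0.28 came to −0.05 after quantile normalization.

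For end joining, XRCC5 and XRCC6, the subunits of the Ku ring that holds broken ends, and XRCC4, the partner of the ligase that seals them, differed by −0.25 ± 0.25, −0.29 ± 0.25 and −0.14 ± 0.26 (lowest limma adjusted p = 0.608), with overlap in each. XRCC4, the brightest of these, read 813, 446 and 455 in prepubertal oocytes, against 856, 476 and 551 in adult oocytes, so that replicate 1 was high in both groups, and its sign turned after quantile normalization.

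Another 20 member probe sets, from 13 genes, were too dim to be tested. Of these, 19 stayed under the highest control tag on every array, and the brightest reached 54.6 on 1 array. For 7 genes no probe set was tested, among them MCM4, POLD4, POLL, PARP8, PARP9 and PARP10, and their low signals do not show absence of the mRNA. A further 9 tested probe sets had both group means under the highest control tag, ERCC1 and POLA2 included.

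**Figure D3:**
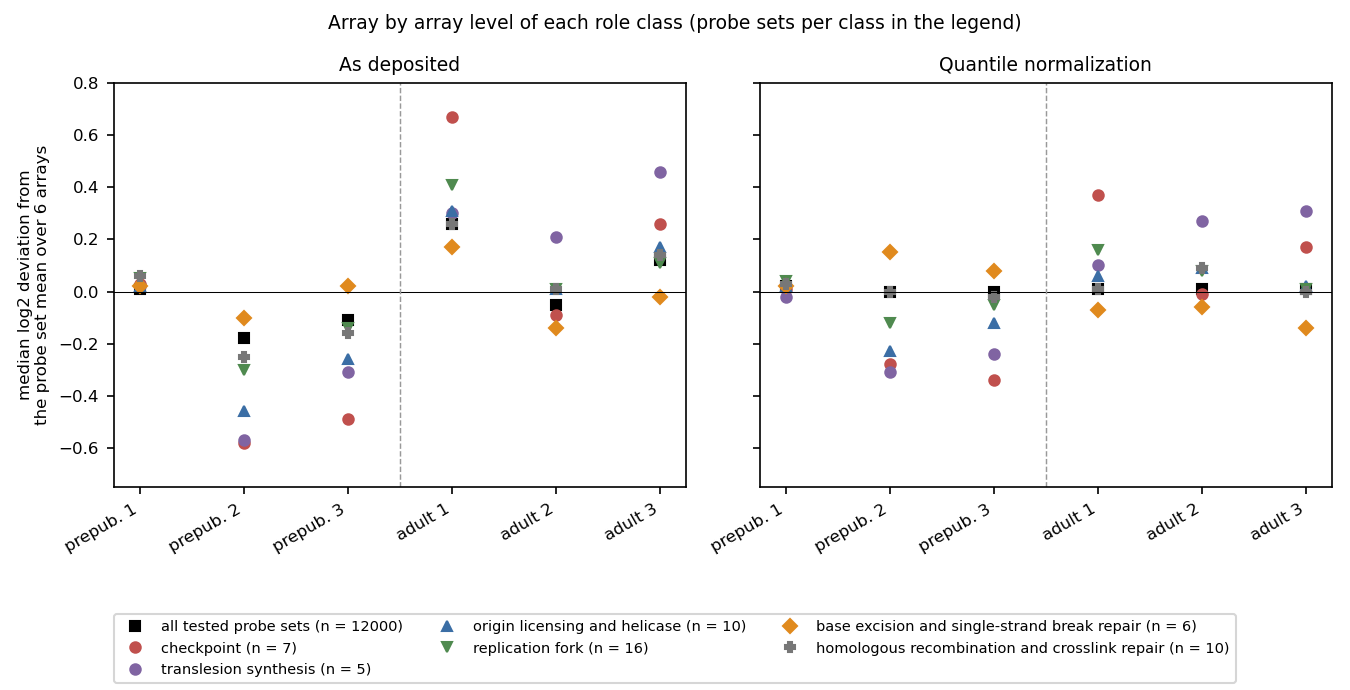
Median log2 deviation of role classes from the 6-array mean of their probe sets, for prepubertal arrays left of the dashed line and adult arrays right of it, as deposited and after quantile normalization. Nucleotide excision repair, mismatch repair and end joining are not drawn. As deposited and among the classes drawn, checkpoint genes are lowest on prepubertal arrays 2 and 3 (−0.58 and −0.49) and highest on adult array 1 (0.67), while prepubertal array 1 lies at 0.03.

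The arrays of a group did not carry these differences equally, as the plot of class medians by array shows. For the 7 checkpoint probe sets the median deviation from the 6-array mean was 0.03, −0.58 and −0.49 on the prepubertal arrays, against 0.67, −0.09 and 0.26 on the adult arrays. Over all tested probe sets the deviations were 0.01, −0.18 and −0.11 against 0.26, −0.05 and 0.12, so the same arrays stood high and low in the whole table. After quantile normalization, which removed that shift, the checkpoint medians were 0.01, −0.28 and −0.34 against 0.37, −0.01 and 0.17, and the translesion medians −0.02, −0.31 and −0.24 against 0.10, 0.27 and 0.31. Prepubertal replicate 1 was thus nearest to the adult arrays in both classes, and adult replicate 2 was within the prepubertal range for the checkpoint class. The base excision medians were 0.02, −0.10 and 0.02 against 0.17, −0.14 and −0.02 as deposited, and 0.02, 0.15 and 0.08 against −0.07, −0.06 and −0.14 after quantile normalization, with no test.

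**Figure D4:**
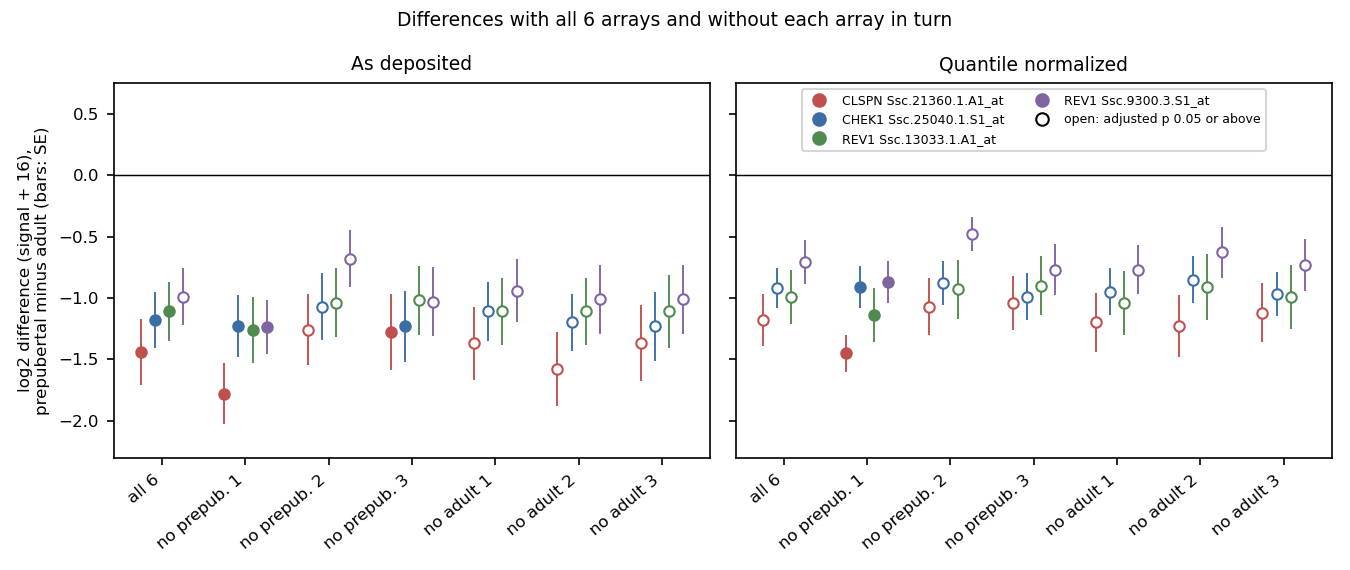
Log2 difference of (signal + 16), prepubertal minus adult, of the CLSPN, CHEK1 and REV1 probe sets with the largest differences, with all 6 arrays and without each array in turn, as deposited and after quantile normalization. Bars are SE, and filled points have a limma adjusted p under 0.05. Every point is below 0, and all 4 probe sets are filled without prepubertal replicate 1.

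Leaving out 1 array at a time kept the sign of CLSPN Ssc.21360.1.A1_at (−1.78 to −1.26), CHEK1 Ssc.25040.1.S1_at (−1.23 to −1.07) and REV1 Ssc.13033.1.A1_at (−1.26 to −1.02) but not their calls. No member passed without adult replicate 1, 2 or 3, beside 0.05%, 0.025% and 0.133% of all tested in either direction, or without prepubertal replicate 2, beside 0.167%. Without prepubertal replicate 3 only CHEK1 and CLSPN did, beside 0.292%. Without prepubertal replicate 1, 7 members were lower, beside 4.98% of all tested probe sets, and 1 was higher, beside 0.5%. The 7 were both probe sets of CLSPN and of REV1, and CHEK1, RAD1 and MCM2, and the 1 higher was PARP3. After quantile normalization, 4 were lower and 1 higher without that array, beside 0.758% and 0.892%. On those values none passed without adult replicate 1, 2 or 3, beside 0.0167%, 0% and 0.0333% of all tested, or without prepubertal replicate 2 or 3, beside 0.05% and 0.025%.

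Of 84 further genes of the same pathways outside the symbol families, 40 were on the array with a single symbol and 35 were tested, in 43 probe sets. None passed, and at an unadjusted limma p under 0.05 there were 7 lower and 0 higher, beside 13.6% and 1.14% of all tested, or 4 lower and 2 higher after quantile normalization, beside 5.81% and 5.06%. Their median was −0.21 as deposited and −0.02 after quantile normalization, close to −0.20 and −0.01 over all tested. The 7 lower as deposited included a dim NEIL1 probe set, Ssc.18497.2.S1_at, with a prepubertal mean of 17.3, under the highest control tag. It entered the test through its adult arrays, so its difference supports nothing. TOP2B, a topoisomerase that untangles DNA, read 176, 144 and 107 in prepubertal oocytes, against 305, 212 and 355 in adult oocytes on Ssc.22797.1.S1_at, without overlap (−0.95 ± 0.25, limma adjusted p = 0.0957, and −0.71 ± 0.19 after quantile normalization). Its brighter probe set Ssc.9169.1.A1_at read 2505, 1855 and 2143 in prepubertal oocytes, against 2965, 2182 and 2473 in adult oocytes. Those groups overlapped, and the difference of −0.23 ± 0.18 (limma adjusted p = 0.573) came to 0.03 ± 0.09 after quantile normalization. RRM1, the large subunit of the enzyme that makes deoxynucleotides, read 3343, 2589 and 2428 in prepubertal oocytes, against 4441, 3910 and 4357 in adult oocytes, again without overlap (−0.61 ± 0.16, limma adjusted p = 0.0990, and −0.33 ± 0.10 after quantile normalization). RRM2B, a small subunit of that enzyme, differed by −0.56 ± 0.16 (limma adjusted p = 0.130), or −0.28 ± 0.11 after quantile normalization. Of the markers of dividing somatic cells, only TOP2A and RRM2, which are replication genes too, were measured. As deposited they summed to 265 to 391 in prepubertal and 402 to 618 in adult oocytes, without overlap (exact permutation p = 0.1), although each gene alone overlapped. TOP2A differed by −0.21 ± 0.23 as deposited (limma adjusted p = 0.7) and RRM2 by −0.85 ± 0.28 (limma adjusted p = 0.181). After quantile normalization TOP2A differed by 0.05 ± 0.16 and RRM2 by −0.62 ± 0.23, with overlap in each. Blood and immune genes summed to 159 to 401 against 280 to 501, mostly from HBB, theca and stroma genes to 82.8 to 112 against 98.3 to 160, and endothelial genes to 109 to 135 against 114 to 146, all with overlap. Within the theca and stroma list, COL3A1 and COL1A2 were picked after their values were seen. COL3A1, a collagen of connective tissue, read 24.9, 5.37 and 18.5 in prepubertal oocytes, against 50.6, 26.8 and 46.3 in adult oocytes, without overlap (−0.85 ± 0.30, limma adjusted p = 0.214). Its prepubertal mean of 16.2 lay under the highest control tag and it entered the test through its adult arrays, so its separation supports nothing. A probe set of COL1A2, another collagen, was too dim to be tested and read 2.68, 1.80 and 3.11 in prepubertal oocytes, against 7.03, 12.3 and 19.4 in adult oocytes, also without overlap, with all arrays under the highest control tag, while a second COL1A2 probe set differed by 0.05 ± 0.24. In the same list DCN (0.10 ± 0.31 on its tested probe set) and CYP17A1, too dim to be tested, lay the other way, and ACTA2 was lower with overlap. The part of any of these lists in the results above was not tested.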

How the data were processed

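Poly(A) RNA was isolated with beads, amplified in 2 cycles and hybridized as biotinylated cRNA to Affymetrix porcine arrays, per the labels' protocols. The authors deposited linear signal intensity values made with MAS5, per the submitters' processing notes. The sources used here give neither its version nor its scaling target. Capture by the tail and amplification weight the signal to transcript 3′ ends and to tail length.

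From 24123 probe sets, 124 control probe sets were left out. A constant of 16 was added before log2, which understates the change of dim probe sets. Probe sets with a mean log2 at or above the median (12000 of 23999) were tested with limma 3.58.1 in R 4.3.3 (lmFit, eBayes with intensity trend), as prepubertal minus adult. The tests were 2-sided, Benjamini-Hochberg adjustment ran over all tested, and calls needed an adjusted p under 0.05. The fit was also run on simulated arrays, with planted changes larger than any member difference and no shift in level between arrays. That run therefore does not bear on the calls reported here. The number of arrays limits the precision, and the files hold no detection calls, so the highest of 17 nonspecific control tags served as a guide to background.

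The members and lists were chosen with earlier results of these data known. Symbols come from the platform annotation: 80 of the 82 member probe sets matched RefSeq by Entrez identifier with the same symbol, and the 2 of REV1 kept the annotation's symbol. Named are all probe sets of genes past the threshold, the brightest and up to 3 further probe sets of smallest p in each role class, those without overlap under both scalings, the highest and lowest difference, and the 3 other pathway genes of smallest p. One gene that this rule names is not reported here. Different probe sets of a gene were kept apart. Alternatives were other constants, filters, scalings, variance models, array weights, a replicate block, another threshold and leaving out each array. No genome or sequence table was used, so no coordinates or sequences are given.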

Additional observations from a re-analysis of the deposited data

How the results depend on the processing

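The direction of the called CLSPN, CHEK1 and REV1 probe sets was the same under every alternative run, and the calls depended on scaling, filter and variance model. Over all tested probe sets 57 passed, with 3 members among them. All tested and member calls were 1 and 0 with no filter, 141 and 4 with a stricter brightness filter, 14 and 0 after quantile normalization, 20 and 2 after trimmed-mean scaling, 7 and 0 after median centring, 1 and 0 without the variance trend, 1259 and 13 with array weights, and 132 and 4 at an adjusted p of 0.10. Constants of 4 and 64 gave 40 and 66, with 3 members each. The members' median of −0.28 moved to −0.06 after quantile normalization and −0.04 after trimmed-mean scaling, which moved the median of all tested to −0.01 and 0.02. Without each array in turn, 3 to 658 probe sets and 0 to 8 members passed, with a member median of −0.40 to −0.16. With quantile normalization as well, these were 0 to 198, 0 to 5 and −0.13 to −0.02. Same-numbered arrays of the groups deviated together only weakly (correlations 0.11, 0.0584 and 0.0294), so the numbers were not taken to pair them. As deposited, each array correlated best with its own number in the other group, a hint from the data and not from the design, which was not so after quantile normalization. With the replicate block 918 probe sets and 12 members passed, and with quantile normalization and the replicate block 33 and 1, with a median of −0.06.

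The named probe sets that changed sign were all uncalled, and 7 of the 13 members that turned from below to above 0 with quantile normalization are among them. With quantile normalization, with and without the block, RAD18 Ssc.18120.2.S1_at came to 0.06, PARP12 to 0.03, LIG3 to 0.09, XPA to 0.13, XPC to 0.11, MSH5 to 0.04 and XRCC4 to 0.13. With trimmed-mean scaling these were 0.12, 0.19, 0.09, 0.11, 0.12, 0.10 and 0.12, and PCNA came to 0.17, POLB to 0.03 and ERCC8 to 0.06. Median centring put RAD18 at 0.02 and PARP12 at 0.01, and array weights XPC at 0.03 and XRCC5 at 0.06. Without each array in turn, over both the deposited and the quantile-normalized values, CHEK1 Ssc.29650.1.A1_at ran from −0.49 to 0.01, RAD18 from −0.23 to 0.21, PARP12 from −0.13 to 0.10, LIG3 from −0.19 to 0.16, POLB from −0.50 to 0.24, XPA from −0.22 to 0.22, XPC from −0.26 to 0.22, ERCC8 from −0.25 to 0.08, MSH5 from −0.26 to 0.31, XRCC4 from −0.42 to 0.27, XRCC5 from −0.48 to 0.13 and XRCC6 from −0.46 to 0.10. The cause of these changes was not tested.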
